A study of Mus musculus with 91 samples.

Results

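Plin4, the gene for perilipin 4, was followed through the day in D1 and D2 neurons of the mouse nucleus accumbens. It is 1 of the 14355 genes of the deposited count table, listed there as ENSMUSG00000002831, and it was chosen by the size of its fitted rhythm in D1 neurons, the largest of any gene. The amplitude and timing of that D1 rhythm are therefore given as a description, without a test. The D2 libraries played no part in the choice. The mean levels and the differences between sexes were not the measure used for it. In D1, however, they come from the same libraries as the rhythm that was, so they are not independent of the choice.

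Perilipins are proteins that coat lipid droplets, the organelles in which cells store neutral fat. Perilipin 4 was first described in adipocytes, where it binds nascent droplets through a long stretch of amphipathic repeats. In the mouse brain its transcript is known to respond to glucocorticoid hormones, whose blood level in nocturnal rodents climbs toward the onset of darkness. The nucleus accumbens is a striatal region for reward and motivation, and most of its output comes from spiny neurons of the D1 and D2 types, told apart by their dopamine receptor.

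The study asked how gene expression in the 2 cell types and the 2 sexes varies over the day. Adult mice, over 10 weeks old per the labels, carried the RiboTag allele, which makes a cell with Cre put a hemagglutinin tag on a ribosomal protein. Drd1-Cre drove the tag in D1 neurons and A2a-Cre in D2 neurons, so cell type and mouse line cannot be told apart. Ribosomes were pulled down through the tag from tissue pooled from 2 mice, and the attached RNA was sequenced. The groups were D1 males (22 libraries), D1 females (23), D2 males (23) and D2 females (23), each taken at Zeitgeber time (ZT, hours after lights on) 2, 6, 10, 14, 18 and 22, which gives 24 groups of 3 or 4 libraries. All mice carried a Cre driver and the tag, and the labels name no treatment. The labels do not say that the libraries of a group share animals, so p-values measure the spread between these libraries. Fewer cells of a type and less RNA per cell cannot be told apart in such bulk samples.

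Total counts per library ranged from 8556069 to 19297403 in D1 and from 6872165 to 24665262 in D2. Within a cell type, 3 D1 male libraries (ZT10 B, ZT22 B and ZT18 D, by the letter in the library title) stood apart, with median correlations over genes of 0.908, 0.923 and 0.940 with the other D1 libraries, against a median over the D1 libraries of 0.984. They had 789, 722 and 205 genes at a count of 0, where the median D1 library had 0. Their Plin4 levels of 5.83, 3.67 and 3.79 CPM lay within the range of the other libraries of their time. The amplitude of the D1 rhythm was 1.68 on the log2 scale without them and 1.69 with them. The deposited identifiers could not be matched to names, so the labelled cell types were not checked against marker genes. RNA of other cells carried along in the pull-down was not gauged either. Below, Plin4 in D1 or D2 neurons therefore means Plin4 in the pull-downs with that label.

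In the mouse genome build GRCm38.p6, Plin4 lies on chromosome 17 at chr17:56100587-56109948 on the minus strand, spans 9362 bases and has 11 annotated transcripts. Its 3′ end shares 19 bases with the end of Hdgfl2, a gene on the plus strand. The sources used here do not state whether the counting used strand, so reads in those shared bases could not be assigned by strand. The gene of another perilipin, Plin5, lies 1648 bases upstream on the same strand. The 250 bases before the start site in the RefSeq promoter table (chr17:56109783-56110032, minus strand, GRCm38.p6) are shown because they make up most of the window in which known daily and hormone-linked motifs were looked for. The annotated gene reaches further upstream than this start site, so 166 of these bases lie inside the gene as annotated. Capitals mark a TATA-like stretch whose first base lies at -32 from the start site.
Plin4 promoter: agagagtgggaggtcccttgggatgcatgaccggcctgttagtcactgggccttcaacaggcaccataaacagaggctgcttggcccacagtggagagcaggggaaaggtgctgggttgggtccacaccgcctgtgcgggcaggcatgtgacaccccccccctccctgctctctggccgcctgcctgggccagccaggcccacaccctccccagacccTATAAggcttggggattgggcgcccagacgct

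Motifs were searched in 300 bases, those shown and the stretch just after the start site, which is not shown, on both strands unless stated. The E-box CACGTG, the site of the core clock activators, had 0 matches, and 7.24% of 27025 promoters of the same length hold it. The D-box TTATGTAA, a site of PAR bZIP factors, had 0 matches, with a share of 0.955% of promoters. The hexamer AGAACA, an arm of the glucocorticoid response element, had 0 matches, with a share of 19% of promoters. The full palindromic element also had 0 matches and occurs in 0.0037% of promoters. The stretch TATAA, searched on the sense strand after the sequence had been seen, matched once, and 18.2% of promoters hold it. These letters are only those of this window.

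Plin4 was counted in all 91 libraries. Its counts ranged from 3 to 559 reads in D1 and from 4 to 178 reads in D2. A count of 3 has an exact 95% Poisson interval of 0.619 to 8.77 reads, so the lowest levels are imprecise, and such intervals cover counting error only. Levels below are CPM, the count as a share of the library total after TMM scaling, in parts per 1000000. They are not divided by transcript length and serve only to compare Plin4 between libraries. Over all times the level was 4.65 ± 7.10 CPM in D1 (SD, n = 45, median 2.46) and 3.99 ± 3.43 CPM in D2 (SD, n = 46, median 3.12).

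In both cell types Plin4 was lowest early in the light phase, at ZT2 and ZT6, was higher from late in the light phase, at ZT10, into the early dark phase, at ZT14, and was lower again at ZT22. In D1 neurons the levels at ZT2 were 0.183, 0.74, 0.848 and 1.31 CPM in males and 0.420, 0.445, 0.794 and 1.68 CPM in females. At ZT6 they were 1.16, 1.285, 1.69 and 2.82 CPM in males and 1.22, 1.34, 1.35 and 1.47 CPM in females. The sexes overlapped at both times, and no library of either time exceeded 2.82 CPM. At ZT10 D1 males had 1.64, 5.83, 5.87 and 6.65 CPM and D1 females 2.46, 3.855, 4.83 and 14.2 CPM. At ZT14 D1 males had 4.41, 5.32 and 7.63 CPM and D1 females 3.16, 4.8, 5.375 and 14.3 CPM. Of the 15 D1 libraries of these late times, 13 lay above every library of ZT2 and ZT6.

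At ZT18 D1 males had 1.68, 3.79 and 4.26 CPM and D1 females 1.73, 31.7 and 36.4 CPM. The highest pair of values in the study, from female libraries C and A, thus stood in the same group as a value of 1.73 CPM. Those 2 libraries had 506 and 559 Plin4 reads, had no gene at a count of 0, and ranked 6 and 33 from the lowest of the 45 D1 libraries in median correlation with the rest. The mean at ZT18 was 13.3 ± 16.2 CPM with them (SD, n = 6, median 4.03) and 2.87 ± 1.36 CPM without them (SD, n = 4). At ZT22 D1 males had 2.45, 2.645, 3.67 and 3.68 CPM and D1 females 1.16, 1.53, 2.08 and 3.145 CPM. Both sexes were by then below most libraries of ZT10 and ZT14.

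**Figure D1:**
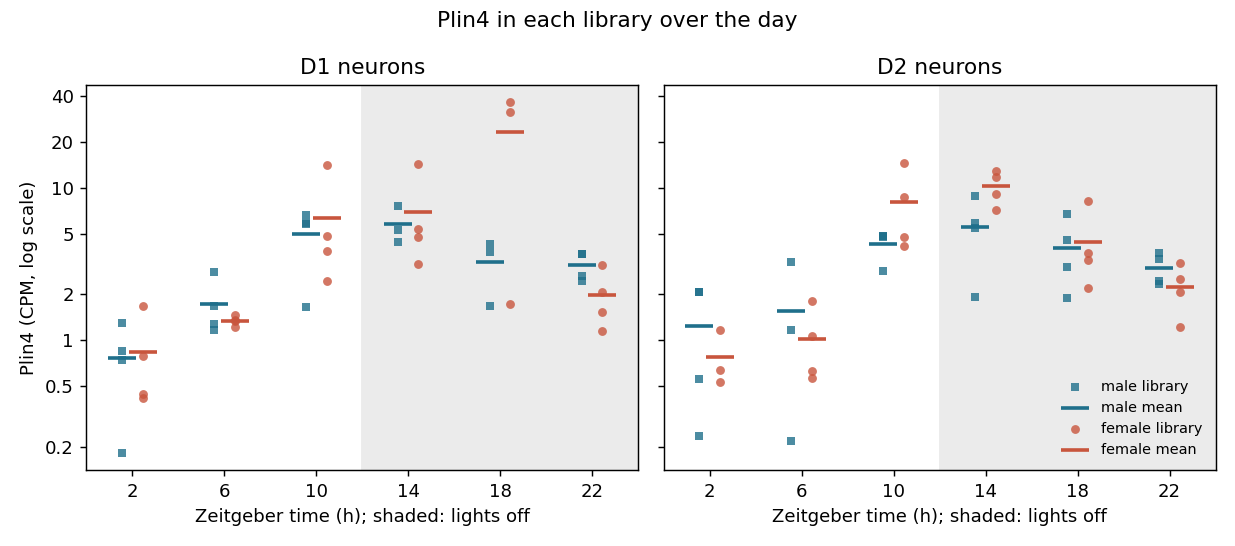
Plin4 level (CPM, log axis) against Zeitgeber time in hours, in D1 (left) and D2 neurons (right). Each point is a library, squares are males, circles are females, horizontal strokes are group means, and shading marks lights off; both cell types are lowest at ZT2 and ZT6, and 2 D1 female libraries at ZT18 lie above all others at 31.7 and 36.4 CPM.

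In D2 neurons the levels at ZT2 were 0.235, 0.562, 2.07 and 2.07 CPM in males and 0.5325, 0.639 and 1.165 CPM in females. At ZT6 they were 0.220, 1.17 and 3.25 CPM in males and 0.5685, 0.628, 1.07 and 1.8 CPM in females. Males spread more widely than females at both times, and the ranges overlapped. At ZT10 D2 males had 2.84, 4.76, 4.82 and 4.84 CPM and D2 females 4.15, 4.78, 8.74 and 14.6 CPM. At ZT14 D2 males had 1.93, 5.485, 5.90 and 8.90 CPM and D2 females 7.22, 9.10, 11.8 and 12.8 CPM. Of these 16 D2 libraries, 14 lay above every D2 library of ZT2 and ZT6. At ZT18 D2 males had 1.90, 3.01, 4.53 and 6.72 CPM and D2 females 2.195, 3.38, 3.74 and 8.25 CPM. At ZT22 D2 males had 2.33, 2.47, 3.44 and 3.76 CPM and D2 females 1.22, 2.07, 2.51 and 3.22 CPM. The highest D2 library at ZT18, at 8.25 CPM, lay below the 2 high D1 female libraries of that time and above the other 4.

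Ordered by mean over both sexes, D1 levels ran ZT2 (0.802 CPM), ZT6 (1.54), ZT22 (2.54), ZT10 (5.67), ZT14 (6.43) and ZT18 (13.3). Neighbours in this order differed by more than the larger of their SDs only between ZT2 and ZT6 and between ZT6 and ZT22. Without the 2 high ZT18 libraries, ZT18 would stand between ZT22 and ZT10. The D2 order was ZT2 (1.04 CPM), ZT6 (1.24), ZT22 (2.63), ZT18 (4.22), ZT10 (6.20) and ZT14 (7.90), where only ZT6 and ZT22 differed by more than the larger SD. The mean at ZT14 was 8.01 times that at ZT2 in D1 and 7.60 times in D2. The mean at ZT10 was 3.68 times that at ZT6 in D1 and 4.98 times in D2.

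The rhythm of Plin4 in D2 neurons, which played no part in its choice, passed the test. A cosine with a period of 24 h, fitted to the counts with edgeR, had an amplitude of 1.44 ± 0.17 on the log2 scale (SE, 46 libraries; height from mean to peak). This corresponds to a peak 7.40 times the trough, with an approximate 95% interval of 4.60 to 11.9. The fitted peak fell at ZT14.28 ± 0.44 h, early in the dark phase. The adjusted p was 4.49e-06 in edgeR's quasi-likelihood test, and the same test called 2.94% of the 14355 genes rhythmic in D2. That fit left out the letter of the library title. Blocking on the letter gave an amplitude of 1.42 and an adjusted p of 1.61e-09 in the same test, which then called 3198 of the 14355 genes.

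In D1 neurons the same model gave an amplitude of 1.69 ± 0.21 (SE, 45 libraries) with a peak at ZT15.04 ± 0.46 h, a peak 10.4 times the trough. In that fit 0.495% of all genes were called rhythmic, a share from which nothing is read about Plin4, since the D1 rhythm chose it. The 2 high ZT18 libraries carried part of this value: without them the amplitude was 1.35 and the peak ZT14.05. The rhythm vectors of D1 and D2 differed by 0.40 ± 0.28 on the log2 scale with them (SE, 91 libraries) and by 0.13 without them, both given without a test.

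Plin4 had the largest amplitude of all 14355 genes in the D2 fit as in the D1 fit. The next called genes had amplitudes of 1.12 and 1.03 in D1 and of 1.41 and 1.05 in D2, so the second in D2 lay within 1 SE of Plin4. By p-value Plin4 had rank 8 in D2. The median amplitude over all genes was 0.09 in D1 and 0.07 in D2. The D1 values of Plin4 chose it, so it is set beside other genes in D1 as a description only. A set of 70 genes other than Plin4 was called rhythmic in D1. They had a median amplitude of 0.31 in D1 and 0.18 in D2, and their highest D2 amplitude was 0.71. Of these 70, 31 were also called in D2, where 2.94% of all genes were called in the same setting.

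**Figure D2:**
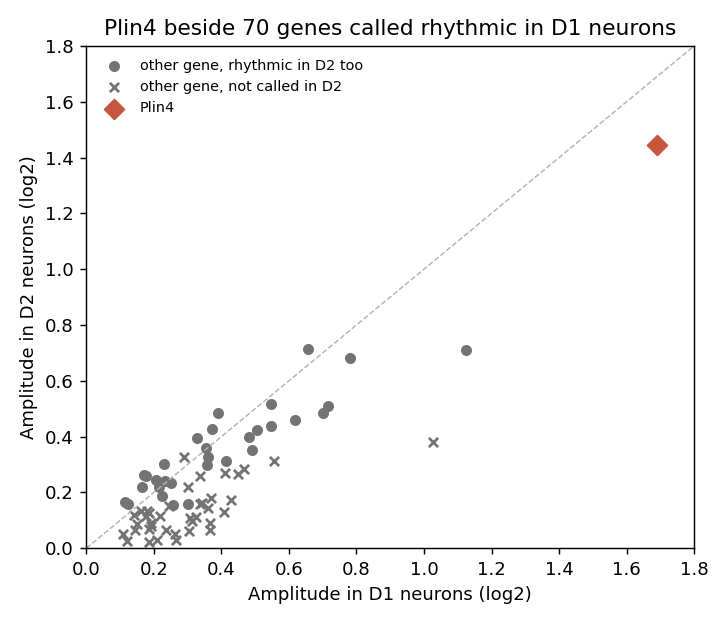
Amplitude of the fitted cosine (log2, mean to peak) in D1 neurons (horizontal) and D2 neurons (vertical) for Plin4 and 70 other genes called rhythmic in D1; circles were also called in D2, crosses were not, and the dashed line marks equal amplitude. Plin4 (diamond, 1.69 in D1 and 1.44 in D2) and the other 70 genes were all picked by their D1 values, so their place below the line does not compare the cell types. The highest D2 amplitude of the other 70 genes is 0.71.

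The mean level of Plin4 did not pass the test between cell types. The D1 minus D2 difference was 0.17 ± 0.20 on the log2 scale (SE, 91 libraries), a ratio of 1.13 with an approximate 95% interval of 0.863 to 1.47. Its adjusted p was 0.548 (edgeR), in a comparison that called 19.3% of all genes. The estimate turned to -0.09 without the 2 high ZT18 libraries and to -0.15 with limma voom, neither of which passed. Time by time, the D1 mean was 0.772 to 1.24 times the D2 mean at ZT2, ZT6, ZT10, ZT14 and ZT22, and 3.15 times at ZT18, and the ranges of the libraries overlapped at all 6 times.

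The sexes were compared within each cell type. Over all times D1 males averaged 3.16 ± 2.11 CPM (SD, n = 22) and D1 females 6.07 ± 9.61 CPM (SD, n = 23). D2 males averaged 3.36 ± 2.16 CPM and D2 females 4.62 ± 4.30 CPM (SD, n = 23 each). On the log2 scale the male minus female difference was -0.43 ± 0.30 in D1 (SE, adjusted p = 0.479, edgeR), a male over female ratio of 0.741 with an interval of 0.496 to 1.11. In D2 it was -0.07 ± 0.24 (SE, adjusted p = 0.949, edgeR), a ratio of 0.956 with an interval of 0.686 to 1.33. Neither passed the test. These comparisons called 0.0418% of all genes in D1 and 0.216% in D2, that is 6 and 31 of 14355. The counts depend on the setting: with the letter as a block they were 1042 and 1357, and without letter B the D1 count was 294. Plin4 passed in none of these. Without the 2 high ZT18 libraries the D1 difference was 0.08 and did not pass either.

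The fitted amplitude of Plin4 was smaller in males than in females in both cell types, but the difference in rhythm did not pass the test in either. In D1 the amplitude was 1.18 ± 0.31 in males, with a peak at ZT14.42, and 2.22 ± 0.30 in females, with a peak at ZT15.38 (SE). Without the 2 high ZT18 libraries the D1 female amplitude was 1.52 ± 0.24, with a peak at ZT13.75 (SE). In D2 the amplitude was 1.03 ± 0.24 in males, with a peak at ZT14.85, and 1.87 ± 0.25 in females, with a peak at ZT13.96 (SE). The male minus female rhythm vector had a length of 1.11 ± 0.43 in D1 (SE, adjusted p = 1, edgeR) and of 0.90 ± 0.35 in D2 (SE, adjusted p = 1, edgeR). Without the 2 high ZT18 libraries the D1 length was 0.40. This test called 0% of genes in D1 and 0% in D2. At an unadjusted p under 0.05 it held 226 genes in D1 and 389 in D2. The unadjusted p of Plin4 was 0.0556 in D1 and 0.0385 in D2 (edgeR), so Plin4 was among the 389. In D2 it ranged from 0.00255 (limma voom) to 0.119 (edgeR without letter D). In D1 it ranged from 0.026 (edgeR without letter D) to 0.452 (edgeR without the 2 high ZT18 libraries). DESeq2 called 0 genes in D1 and 2 in D2, and limma voom called 2885 in D1 and 3 in D2. With the letter as a block, edgeR called 3 genes in D2 and gave Plin4 an adjusted p of 0.179.

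**Figure D3:**
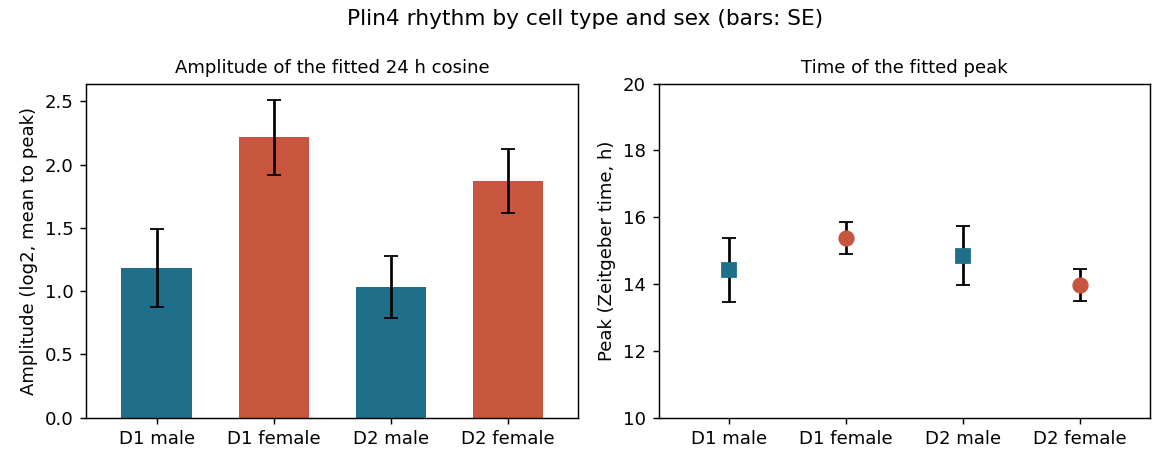
Amplitude (left, log2, mean to peak) and time of the fitted peak (right, Zeitgeber time in hours) of Plin4 by cell type and sex, with bars of 1 SE. Amplitudes are 1.18 and 1.03 in D1 and D2 males and 2.22 and 1.87 in D1 and D2 females, and all peaks lie between ZT13.96 and ZT15.38.

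Tested alone, which was chosen after the data were seen, the rhythm of D2 females passed (peak 13.4 times the trough, adjusted p = 9.98e-05, edgeR), where the share of genes called was 0.495%. That of D2 males did not pass without a block (peak 4.19 times the trough, adjusted p = 0.131, edgeR), where the share of genes called was 0.237%. Blocking on the letter, the D2 male rhythm passed, at an amplitude of 1.00 and an adjusted p of 0.00262. It also passed with the log of the total count as a covariate, at an adjusted p of 0.0294. At ZT10 and ZT14 the D2 male mean was 0.534 and 0.542 times the female mean, and at ZT2 and ZT6 it was 1.59 and 1.52 times the female mean, with overlapping ranges at each time.

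Plin4 varied among libraries of the same cell type, sex and time. The SD within groups was 0.82 on the log2 scale in D1 and 0.66 in D2. Genes of like level, 1133 in number, had a median SD of 0.46 in D1 and 0.40 in D2. Of those genes, 24 in D1 and 186 in D2 spread more than Plin4. The D1 values rest largely on the female ZT18 group. Without that group, left out after the data were seen, the D1 SD was 0.62, the median of the like genes 0.47, and 257 of them spread more than Plin4. Taken one at a time, the 6 times accounted for 56.7% of the sum of squares of log2 levels in D1 and 67.8% in D2, and sex for 0.748% and 0.608%.

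In D2 the spread within groups followed the letter in the library title. Libraries with letter C lay above their group mean in 12 of 12 groups, by 0.59 ± 0.37 on the log2 scale (SD), and were the highest in 8. Libraries with letter A lay 0.50 ± 0.48 below it (SD, n = 12) and were the lowest in 9. The letter accounted for 51.4% of the sum of squares within groups in D2 and for 8.23% in D1. In D1 the mean deviation was 0.29 ± 0.66 for letter C and -0.21 ± 0.65 for letter A (SD, n = 12 each). In D2 the mean total count was 11336342 for letter C and 19727033 for letter A. Letter D had the lowest mean total, 10904585, with a mean deviation of 0.07, and letter B had 16241681 with a mean deviation of -0.19. The labels do not say what the letters mark, and the part of depth in this pattern was not tested.

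**Figure D4:**
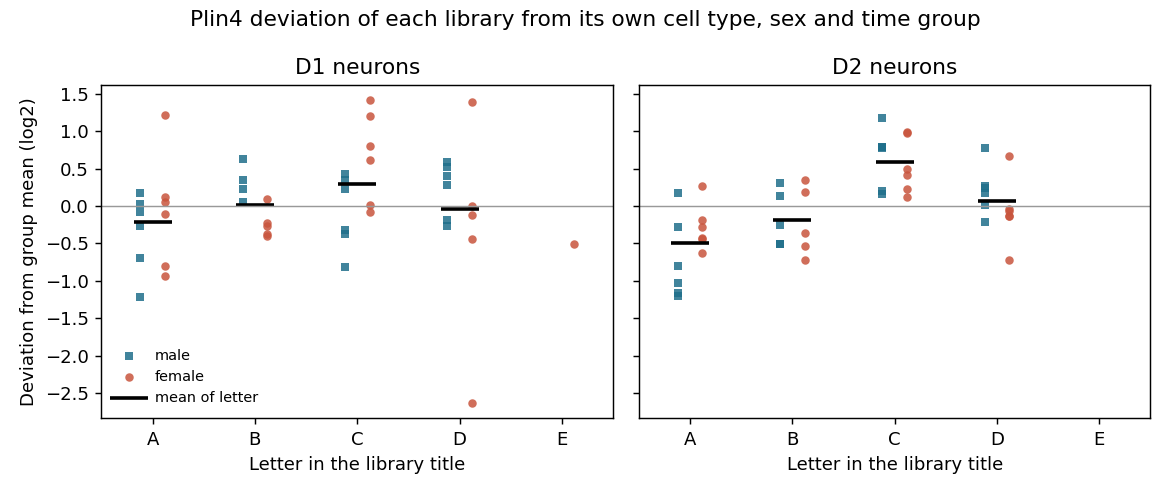
Deviation of Plin4 in each library from the mean of its own cell type, sex and time group (log2), by the letter in the library title, in D1 (left) and D2 neurons (right). Squares are males, circles are females and black strokes are letter means; in D2 all 12 libraries of letter C lie above 0, while in D1 the letters overlap and a female library of letter D at ZT18 lies lowest.

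Among 14034 genes with a mean of at least 2 CPM, the gene most like Plin4 in its 24 group means was ENSMUSG00000066687 (Pearson r = 0.88), followed by ENSMUSG00000019232 (r = 0.88). Both are given by identifier because no table pairs them with a name. These points share libraries and times of day, and r is a description. The tenth likest gene had r = 0.76, and the median gene -0.03. ENSMUSG00000066687 averaged 7.87 CPM at ZT2 and 16.3 CPM at ZT14 in D1, and 9.09 CPM at ZT2 and 15.8 CPM at ZT14 in D2. It peaked at ZT14.6 in D1 and ZT13.1 in D2. ENSMUSG00000019232 averaged 5.04 CPM at ZT2 and 13.5 CPM at ZT14 in D1, and 5.36 CPM at ZT2 and 15.5 CPM at ZT14 in D2. It peaked at ZT15.3 in D1 and ZT14.6 in D2. Both averaged more at ZT14 than at ZT2 in each cell type, by a smaller ratio than Plin4. The genes were picked for likeness to Plin4, so their rise and their peak times follow largely from that choice. Plin4 was itself chosen for its amplitude, so nothing is read from the smaller ratio.

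Without the 2 high ZT18 libraries r was 0.87 for ENSMUSG00000066687 and 0.92 for ENSMUSG00000019232. Deviations of the 91 libraries from their group means correlated with those of Plin4 at r = 0.55 and r = 0.59 for the same genes. On that measure the likest gene had r = 0.62, and the 10 likest genes included 1 of the 10 likest by group means. These deviations were not adjusted for the letter, which accounted for 51.4% of the Plin4 sum of squares within groups in D2. The 2 high ZT18 libraries were kept in. The part of either in these correlations was not tested.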

How the data were processed

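Ribosome-associated RNA of 91 libraries was analysed. The deposited table holds raw counts per gene, whole numbers. Per the submitters' processing notes, reads went through FastQC 0.11.7, HTSeq 0.10.0 and HISAT2 (its version is not given), and the builds GRCm38 and GRCh38 are named without a role. The name of the deposited table adds that genes were filtered on log CPM, at a threshold not known here. Of the 14355 identifiers 0 matched the 49997 entries of the reference table, so 17 lists of related genes and cell type markers were not scored.

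Counts were fitted in R 4.3.3 with edgeR 4.0.16 (TMM, quasi-likelihood test, Benjamini-Hochberg over 14355 genes, threshold 0.05). Each sex had its own mean, cosine and sine with a period of 24 h, in D1, in D2 and in all 91 libraries. Differences are D1 minus D2 and male minus female. SEs of amplitudes and peaks come from the fitted covariance, and intervals are normal approximations. Likeness and spread used log2(CPM + 0.5). The code was tested on simulated data. Plin4, the lists and the tests were chosen with earlier results of these data known; the rule for named genes was Plin4, listed perilipins and related genes, and the likest genes, held here to 2 identifiers.

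Same-letter libraries of different groups deviated together in D2 (243 pairs, lowest r 0.20, 100% over 0.1) but not throughout D1 (223 pairs, 68.6%), so letters were taken to pair D2 libraries only. No library was a copy of another of its group (lowest mean chi-square per gene 4.24 over 129 pairs). The alternatives tried were voom with quality weights in limma 3.58.1, DESeq2 1.42.0, least squares on log2(CPM + 1), RLE size factors, filterByExpr, a letter block, depth as a covariate, letters A to D left out in turn, time as 6 levels, a single rhythm for both sexes, a joint fit, and libraries that stand apart left out.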

Additional observations from a re-analysis of the deposited data

Results flagged for a closer look

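Of 31 groups of 4 to 8 libraries examined for a library far from the rest, 5 held one. The 31 include sets that join both sexes at a time, so they share libraries and are not separate. For that reason no excess over the chance rate of about 5% of groups is read from the 5. D1 male library A at ZT10 had 1.64 CPM of Plin4, with the others of its group between 5.83 and 6.65. D2 male library B at ZT10 had 2.84 CPM, with the others between 4.76 and 4.84. With both sexes together, D1 male library B at ZT6 had 2.82 CPM, with the others between 1.16 and 1.69. D1 female library D at ZT10 had 14.2 CPM, with the others between 1.64 and 6.65. D1 female library C at ZT14 had 14.3 CPM, with the others between 3.16 and 7.63. The 2 high D1 female libraries at ZT18, at 36.4 and 31.7 CPM, were not singled out this way, since a pair of high values leaves no gap to the nearest.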

How the results depend on the processing

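Of 125 alternative values for Plin4, 118 showed no change of sign or of side of the threshold of 0.05. That count says little for rhythms, whose value is a length without a sign and so could not change sign. The 15 values of the D1 rhythm and the 14 of the D1 minus D2 rhythm were also untested, so they had no side of the threshold. The D2 rhythm passed under all 14 alternatives run, with amplitudes of 1.05 to 1.498 and peaks of ZT13.97 to ZT14.36. The D1 rhythm, untested, ranged over amplitudes of 1.08 to 1.78. Estimates that changed sign, none of which passed with or without the change, were the D1 minus D2 mean level (-0.085 without D1 female ZT18 libraries A and C, chosen after seeing the data, and -0.15 with limma voom), the D1 male minus female mean level (0.080 without those libraries) and the D2 male minus female mean level (0.071 with depth as a covariate, and -0.15 to 0.017 with each letter left out). Without those 2 libraries the D1 male minus female rhythm vector had a length of 0.40 ± 0.33 (SE), and its time moved from ZT4.40 to ZT23.67. The D1 minus D2 rhythm vector then had a length of 0.13 ± 0.26 (SE), and its time moved from ZT18.11 to ZT5.00. The rhythm of D2 males came to pass with the replicate block (amplitude 1.00) and with depth as a covariate (1.02), at adjusted p-values of 0.00262 and 0.0294, and ranged over 0.95 to 1.12 with a letter left out, where it did not pass. The replicate block changed no other call for Plin4. In D1, where only part of the same-letter pairs deviated together (68.6% over r = 0.1), it gave an amplitude of 1.62. Genes called rhythmic in D1 numbered 71, against 162 with the block, 215 with DESeq2, 314 with depth as a covariate, 717 with limma voom, 177 without the 3 D1 male libraries that stand apart, 26 with time as 6 levels and 13 to 54 with a letter left out. In D2 they numbered 422, against 3198, 669, 1076, 3046 (limma voom), 91 (time as 6 levels) and 55 to 261. Genes differing in mean between D1 and D2 numbered 2770, against 5471 with the block, 4400 with depth as a covariate, 8248 with limma voom and 1767 to 6912 with a letter left out. The causes were not tested. DESeq2 gave no adjusted p for the D1 sex difference in mean. Counts of 3 to 28 reads in the libraries of ZT2 limit the precision of the trough.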
